A study of Rattus norvegicus with 12 samples.

Results

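The genes described here encode the heat shock chaperones of the cytosol and of mitochondria, together with the proteins that work beside them and the factors that switch them on. The list holds 45 rat genes of the HSP70, HSP110, HSP90 and small HSP families, the DNAJ and BAG proteins, other co-chaperones, the chaperonins of both compartments and 2 heat shock factors. A gene entered by its symbol, through array probes whose RefSeq accession maps to that symbol. Probes were found for 43 of the 45, among 16581 genes named on the arrays, and all 43 had a tested probe, among 10741 genes with one. Hspa1b and Dnajb1 had no probe by this rule. The 43 genes had 57 probes, of which 56 were tested, and the probe with the highest mean stood for its gene.

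RNA came from L6 cells, a rat skeletal myoblast line, which per the labels had been differentiated to myotubes for 6 days, while the methods of the study give 7. There were 4 groups of 3 arrays, treated for 24 h with GR24 at 60 µM, pinosylvin at 60 µM, resveratrol at 60 µM or the solvent DMSO as the control, and the compounds were given in DMSO too. GR24 is a synthetic analogue of the strigolactone plant hormones, while pinosylvin and resveratrol are plant stilbenes. The 3 arrays of a group stand for independent experiments on a single batch of cells, so every p-value below speaks for that batch.

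Each Agilent single-colour array read 58717 spots of 45598 probes, and 58.0% to 64.3% of spots were marked by the software as clearly over the background. A level is given as log2 of the processed signal relative to the 75th percentile of its array, so that 0 is the signal at that percentile, and a change is a difference of such levels. A gene counted as changed where the adjusted p of limma, by Benjamini-Hochberg over all 24279 tested probes, was under 0.05. All 43 genes were well above background on all 12 arrays. The number of arrays limits the precision.

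The label of the cells was checked against markers. Of 13 myotube markers 12 had a tested probe, with none for Mymk, and these 12 were well above background on all 12 arrays, with Myh3 the brightest. Of the markers of other cell types, Ptprc of blood cells, Epcam of epithelia and Adipoq of fat cells were above background on 0 arrays and Pecam1 of endothelium was on 5, while Cdh5, also of endothelium, was on all 12. Transcripts of cycling cells, such as Mki67, were also above background in every group.

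Heat shock proteins bind unfolded stretches of other proteins and help them to fold, to assemble or to be degraded. HSP70 works in cycles of ATP use that DNAJ proteins start and BAG proteins help to end, HSP90 finishes the folding of kinases and receptors, and the small heat shock proteins hold unfolded proteins without ATP. Heat shock factor 1 switches on the stress-inducible genes among them, and in muscle the small heat shock proteins and Bag3 look after the sarcomere, Hspb2 and Hspb3 being small heat shock proteins made as muscle cells differentiate.

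With GR24 more of the chaperone genes rose than fell. Of the 43, 23 were higher than in the control, 10 were lower and 10 did not pass. Over all tested probes limma called 57.1% in this comparison, 31.5% higher and 25.5% lower, so a call on its own sets no gene apart. The share of chaperone genes called lower was near that of all tested probes, and the share called higher was above it. The chaperone genes were called in 76.7% of cases, against 59.5% of probes clearly above background on every array. In 33 of the 43 genes (76.7%) the GR24 and control arrays did not overlap, against 61.1% of all tested probes. The median change was 0.26, beside 0.027 over all tested probes. Changes of more than 2-fold were called for 2 genes up (4.65%) and 4 down (9.30%), beside 5.79% and 9.83% of all tested probes, and 3 were down with normexp or in the series table, Hspa2 being under that size. Within the slide that held replicates 1 and 2 the median change was 0.24, and within the slide that held replicate 3 it was 0.25. Without GR24 array 2 the count of higher genes was 15. With the replicate number as a block in the model, 26 genes were higher and 10 lower (83.7%), beside 66.6% of all tested probes.

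Pinosylvin changed fewer of them, with 7 higher, 3 lower and 33 that did not pass. Over all tested probes 16.6% were called, 8.28% higher and 8.27% lower, beside 23.3% of the chaperone genes. In 21 of the 43 genes the groups did not overlap, against 32.7% of all tested probes. The median change was 0.11, beside 0.054 over all probes, with 0.094 and 0.12 within the 2 slides, and it ranged from 0.067 to 0.16 with each array left out. None changed by more than 2-fold. With the replicate number as a block in the model, 12 genes were higher and 4 lower (37.2%), and 28.6% of all tested probes were called. Without control array 1, pinosylvin array 1 or pinosylvin array 2 there were 4.

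Resveratrol changed a share near that of the arrays as a whole. There were 5 genes higher, 2 lower and 36 that did not pass, which makes 16.3% called beside 17.0% of all tested probes, 7.99% higher and 8.99% lower. In 15 of the 43 genes the groups did not overlap, against 33.1% of all tested probes. The median change was 0.014, beside 0.010 over all probes, and within the 2 slides it was -0.0033 and 0.024, and it ranged from -0.043 to 0.073 with each array left out. With the replicate block 7 genes were higher and 4 lower (25.6%), beside 27.9% of all tested probes. The count of higher genes fell to 2 or 3 without any single one of 10 arrays, GR24 arrays 2 and 3 being the other ones. The count of lower genes was 0 without control array 2, and 1 without control array 1, GR24 array 1, pinosylvin array 1 or 2, or resveratrol array 2 or 3.

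**Figure D1:**
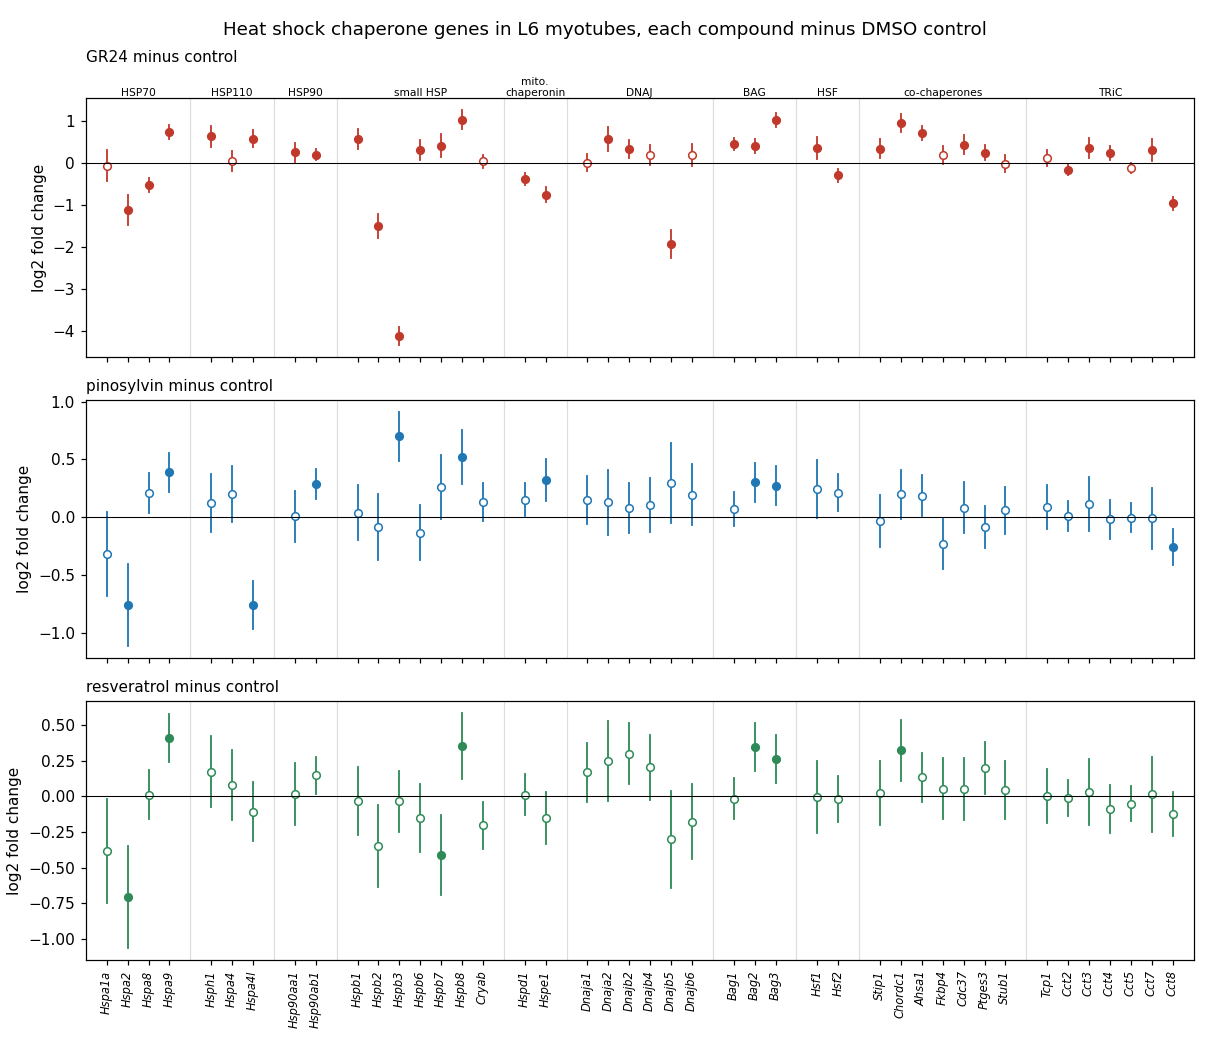
Change of each heat shock chaperone gene (log2 fold change, vertical axis, scaled per panel) with GR24, pinosylvin or resveratrol against the DMSO control, by family, with 3 arrays per group. Points are fitted changes, bars are 95% confidence intervals and filled points passed the threshold. The change of Hspb3 with GR24, at -4.12, lies far below the others.

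The heat shock factors were taken first. Hsf1, the factor that drives the stress-inducible genes, read 2.64, 2.80 and 2.44 on the control arrays, 3.04, 3.04 and 2.91 with GR24, 2.96, 2.98 and 2.67 with pinosylvin and 2.67, 2.71 and 2.48 with resveratrol. The GR24 arrays all lay above the control arrays, and the other groups overlapped with the control. Its change with GR24 was 0.37 (SE 0.114, adjusted p = 0.0175). The call was lost without control array 3 or GR24 array 1 or 2, at an adjusted p of up to 0.0678, and a second probe gave 0.046 (adjusted p = 0.726), the mean of both giving 0.21 (adjusted p = 0.0925). Hsf2, a related factor active in development, read 2.15, 2.05 and 1.97 in the control, 1.84, 1.80 and 1.67 with GR24, 2.33, 2.24 and 2.24 with pinosylvin and 2.08, 2.08 and 1.96 with resveratrol. It was lowest on the 3 GR24 arrays and highest on the 3 pinosylvin arrays, with resveratrol overlapping the control. Its change was -0.29 with GR24 (SE 0.0729, adjusted p = 0.0061) and 0.21 with pinosylvin (adjusted p = 0.0733). With the replicate block the pinosylvin changes of both factors passed, at 0.24 for Hsf1 (adjusted p = 0.0122) and 0.21 for Hsf2 (adjusted p = 0.00983).

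Among the HSP70 genes, GR24 raised the mitochondrial Hspa9 and lowered Hspa2 and the constitutive Hspa8. Hspa9, which draws proteins into mitochondria and folds them there, read 3.95, 3.90 and 3.89 in the control, 4.70, 4.75 and 4.51 with GR24, 4.35, 4.19 and 4.36 with pinosylvin and 4.31, 4.35 and 4.30 with resveratrol. Every treated array lay above every control array, and the GR24 arrays were the highest. The change was 0.74 with GR24 (SE 0.0757, adjusted p = 1.27e-05), 0.39 with pinosylvin (adjusted p = 0.00566) and 0.41 with resveratrol (adjusted p = 0.0043). A second probe was called in all 3 comparisons too, with changes of 0.88, 0.44 and 0.42.

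Hspa2, an HSP70 best known from the testis, moved the other way. It read -2.60, -2.52 and -2.88 on the control arrays, -3.66, -3.61 and -4.06 with GR24, -3.32, -3.21 and -3.74 with pinosylvin and -3.38, -3.45 and -3.29 with resveratrol. All 9 treated arrays lay below the control arrays. It fell with GR24 by 1.11 on the log2 scale (SE 0.161, adjusted p = 0.000165), which is 2.16-fold, and the changes were -0.76 with pinosylvin (adjusted p = 0.00938) and -0.71 with resveratrol (adjusted p = 0.0132). The size of its fall with GR24 moved with the processing, to -0.53 with normexp and quantile normalization, a 1.44-fold fall, and to -0.74 in the series table, both called. The stilbene changes moved as well. With pinosylvin the change was -0.41 with normexp, still called, and with resveratrol it was -0.36 with normexp and quantile normalization. The resveratrol call was lost without control array 2 (adjusted p = 0.0526) and in 3 other alternatives, at an adjusted p of up to 0.0871.

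Hspa8, the constitutive HSP70 of the cytosol, read 8.29, 8.51 and 8.38 in the control, 7.92, 7.94 and 7.76 with GR24, 8.53, 8.66 and 8.61 with pinosylvin and 8.40, 8.41 and 8.41 with resveratrol. The GR24 arrays lay below all others and the pinosylvin arrays above all others. The change with GR24 was -0.52 (SE 0.0767, adjusted p = 0.000192), and all 4 of its probes were called lower, from -0.40 to -0.85. With quantile normalization the change was -0.22, still called (adjusted p = 0.0085). With pinosylvin the change was 0.21 (adjusted p = 0.0941, with 0.0399 for the replicate and 0.0519 for the slide block), and 2 of its other probes passed, at 0.22 and 0.42.

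Hspa1a, the stress-inducible HSP70, did not pass in any comparison with the control. It read -3.82, -4.15 and -4.29 in the control, -3.94, -4.16 and -4.31 with GR24, -4.38, -4.39 and -4.43 with pinosylvin and -4.12, -4.72 and -4.56 with resveratrol. The control and GR24 arrays lay over each other, and the pinosylvin arrays lay just under the lowest control array. With GR24 the change was -0.052, with a 95% interval of -0.42 to 0.31, so that a rise above 0.31 on the log2 scale lay outside the interval at 24 h. With resveratrol it was -0.38 (adjusted p = 0.151, with 0.0283 for the replicate and 0.084 for the slide block). Hspa1b is a nearly identical copy, and how far its transcripts reach this probe was not tested. A second Hspa1a probe was above background on 0 arrays.

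The HSP110 proteins exchange the nucleotide of HSP70 and so let it release its clients. Hsph1, which is heat-inducible, read -0.57, -0.66 and -0.25 in the control, 0.21, 0.21 and 0.030 with GR24, -0.45, -0.43 and -0.23 with pinosylvin and -0.39, -0.35 and -0.22 with resveratrol. The GR24 arrays lay above all others, which overlapped. The change with GR24 was 0.64 (SE 0.113, adjusted p = 0.000613). Hspa4l read -0.54, -0.45 and -0.32 in the control, 0.15, 0.26 and 0.057 with GR24, -1.32, -1.22 and -1.04 with pinosylvin and -0.48, -0.63 and -0.52 with resveratrol. It was highest on the GR24 arrays and lowest on the pinosylvin arrays, with no overlap between either group and the control. The change was 0.59 with GR24 (SE 0.0935, adjusted p = 0.000304) and -0.76 with pinosylvin (adjusted p = 0.000351), and with resveratrol it was -0.11 (adjusted p = 0.516). Hspa4, the widely expressed HSP110, read 4.18, 4.27 and 3.88 in the control, 4.20, 4.24 and 4.08 with GR24, 4.35, 4.33 and 4.25 with pinosylvin and 4.36, 4.10 and 4.11 with resveratrol. All groups but pinosylvin against GR24 overlapped, and its changes of 0.062, 0.20 and 0.080 did not pass.

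The DNAJ proteins deliver clients to HSP70 and start its ATP cycle. Of 7 listed, 6 were tested, and with GR24 2 were higher, 1 was lower and 3 did not pass. Dnajb5 read -0.55, -0.79 and -0.92 in the control, -2.35, -2.96 and -2.74 with GR24, -0.39, -0.48 and -0.52 with pinosylvin and -1.10, -0.88 and -1.20 with resveratrol. The GR24 arrays lay far below every other array, and the pinosylvin arrays lay above the rest. The change with GR24 was -1.93 (SE 0.154, adjusted p = 2.05e-06), a 3.8-fold fall, and with normexp and quantile normalization it was -1.40. With pinosylvin it was 0.30 (adjusted p = 0.236) and with resveratrol -0.30 (adjusted p = 0.23). Dnaja2, a cytosolic partner of Hspa8, read 3.12, 3.12 and 3.08 in the control, 3.76, 3.93 and 3.37 with GR24, 3.37, 3.17 and 3.17 with pinosylvin and 3.42, 3.40 and 3.25 with resveratrol. All control arrays lay below all treated ones, and GR24 array 3 was well below the other 2 of its group. The change with GR24 was 0.58 (SE 0.127, adjusted p = 0.00246). Dnajb2, which passes clients on to the proteasome, was 0.35 higher with GR24 (adjusted p = 0.0104) and 0.30 with resveratrol (adjusted p = 0.0594, and 0.0179 with the replicate block). Dnaja1 changed by 0.014 with GR24, with an interval of -0.19 to 0.22. Dnajb4 was at 0.20 (adjusted p = 0.127) and Dnajb6, which keeps polyglutamine proteins from aggregating, at 0.19 (adjusted p = 0.202), and with the replicate block both passed, at 0.0485 and 0.031.

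BAG proteins help HSP70 to let go of its clients, and all 3 rose with GR24. Bag3, which joins Hspb8 in sending damaged muscle proteins to autophagy, read 5.10, 5.03 and 5.01 in the control, 6.08, 6.23 and 5.95 with GR24, 5.35, 5.26 and 5.35 with pinosylvin and 5.36, 5.24 and 5.33 with resveratrol. The control arrays were the lowest and the GR24 arrays the highest, and the 2 stilbene groups lay between them and over each other. The change was 1.04 with GR24 (SE 0.077, adjusted p = 1.15e-06), a 2.06-fold rise. It was 0.27 with pinosylvin (adjusted p = 0.0349) and 0.26 with resveratrol (adjusted p = 0.0411). Both of these calls were weak. The pinosylvin call was lost without any one of the control or pinosylvin arrays, GR24 array 1 or resveratrol array 3 (adjusted p up to 0.106), and the resveratrol call without any one array but GR24 array 2 or 3 (adjusted p up to 0.125).

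Bag2, which holds back the ubiquitin ligase Stub1, read 3.68, 3.65 and 3.70 in the control, 4.10, 4.19 and 3.96 with GR24, 4.07, 3.99 and 3.88 with pinosylvin and 4.02, 4.08 and 3.97 with resveratrol. All 9 treated arrays lay above the control arrays, and the treated groups overlapped. The change was 0.41 with GR24 (SE 0.0754, adjusted p = 0.000848), 0.30 with pinosylvin (adjusted p = 0.0202) and 0.35 with resveratrol (adjusted p = 0.0101). The pinosylvin call was lost without control array 1 or 2 or pinosylvin array 1 or 2 (adjusted p up to 0.08). Bag1 was 0.46 higher with GR24 (adjusted p = 0.000145), and its changes with pinosylvin and resveratrol were 0.071 and -0.016, neither past the threshold.

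The 2 cytosolic HSP90 genes moved little. Hsp90aa1, the inducible form, read 5.93, 6.08 and 5.80 in the control, 6.25, 6.28 and 6.07 with GR24, 5.97, 6.03 and 5.83 with pinosylvin and 5.96, 6.07 and 5.83 with resveratrol. The highest control array lay just above the lowest GR24 array, and the stilbene groups lay over the control. With GR24 it changed by 0.26 (SE 0.0989, adjusted p = 0.0419). That call was lost without control array 1 or 3, GR24 array 1 or 2, pinosylvin array 1 or resveratrol array 1 (adjusted p up to 0.143), and a second probe, at 0.21, did not pass (adjusted p = 0.0851). Hsp90ab1, the constitutive form, read 5.64, 5.56 and 5.59 in the control, 5.83, 5.84 and 5.75 with GR24, 5.90, 5.90 and 5.86 with pinosylvin and 5.72, 5.81 and 5.70 with resveratrol. Every treated array lay above the control arrays, with pinosylvin the highest. The change was 0.21 with GR24 (SE 0.0587, adjusted p = 0.0103), 0.29 with pinosylvin (adjusted p = 0.00724) and 0.15 with resveratrol (adjusted p = 0.117). Its second probe did not pass with GR24 (0.15, adjusted p = 0.409) or with pinosylvin (0.29, adjusted p = 0.211), and the GR24 call was lost in 3 alternatives, with no filter on dim probes among them (adjusted p up to 0.107). The pinosylvin call was lost with only the arrays compared in the fit (adjusted p = 0.0504).

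Of the 7 co-chaperones of HSP90 and HSP70, 5 rose with GR24 and 2 did not pass. Chordc1, a heat-inducible partner of HSP90, read 3.39, 3.51 and 3.47 in the control, 4.44, 4.59 and 4.21 with GR24, 3.68, 3.59 and 3.69 with pinosylvin and 3.75, 3.89 and 3.71 with resveratrol. The GR24 arrays were the highest, and the control arrays lay below all treated ones. The change was 0.95 with GR24 (SE 0.0961, adjusted p = 1.14e-05) and 0.32 with resveratrol (adjusted p = 0.0437), and with pinosylvin it was 0.20 (adjusted p = 0.203). The resveratrol call was lost without any one array but GR24 array 2 or 3 (adjusted p up to 0.151). Stub1, the ligase that marks clients of HSP70 and HSP90 for degradation, read 5.90, 6.01 and 5.79 in the control, 5.95, 5.91 and 5.80 with GR24, 5.98, 6.02 and 5.88 with pinosylvin and 6.01, 6.06 and 5.78 with resveratrol. The 4 groups lay over each other, and the change with GR24 was -0.013, with an interval of -0.22 to 0.19.

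The other co-chaperones lay between these. Ahsa1, which speeds up the ATPase of HSP90, was 0.73 higher with GR24 (adjusted p = 1.85e-05), and with pinosylvin its 0.19 did not pass (adjusted p = 0.137), though it did with the replicate block (adjusted p = 0.0196), with the slide block and with the percentile over spots. Cdc37, which brings kinases to HSP90, was 0.45 higher with GR24 (adjusted p = 0.00263). Stip1, which links HSP70 to HSP90, was 0.35 higher (adjusted p = 0.0134), a call lost without control array 3 or GR24 array 1 or 2 (adjusted p up to 0.0525). Ptges3, which steadies closed HSP90, was 0.26 higher (adjusted p = 0.02), a call lost without control array 1 or GR24 array 2 (adjusted p up to 0.0825). Fkbp4, which works with steroid receptors, had changes of 0.20 with GR24 (adjusted p = 0.111) and -0.23 with pinosylvin (adjusted p = 0.137), and with the replicate block both passed, at 0.0191 and 0.0223. Ptges3 was at 0.20 with resveratrol (adjusted p = 0.131, with 0.0482 for the replicate and 0.0776 for the slide block).

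The small heat shock proteins covered nearly the whole range of changes with GR24, with 4 of 7 higher, 2 lower and 1 that did not pass. Hspb3, a small heat shock protein of muscle, read 1.36, 1.28 and 1.15 in the control, -2.75, -2.92 and -2.91 with GR24, 2.13, 1.91 and 1.84 with pinosylvin and 1.23, 1.33 and 1.12 with resveratrol. The 3 GR24 arrays lay far below all others, the pinosylvin arrays were the highest, and the resveratrol arrays lay over the control. Its change with GR24 was -4.12 (SE 0.0966, adjusted p = 3.67e-10), a 17.4-fold fall, and it was -4.15 and -4.06 within the 2 slides. With normexp and quantile normalization it was -3.30, a 9.85-fold fall, and in the series table -3.65. With pinosylvin it rose by 0.70 (SE 0.0966, adjusted p = 0.000739), while with resveratrol the change was -0.034, with an interval of -0.25 to 0.18.

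Hspb2, the partner of Hspb3 in muscle, read 2.87, 2.81 and 2.82 in the control, 1.18, 1.15 and 1.70 with GR24, 2.77, 2.75 and 2.73 with pinosylvin and 2.38, 2.60 and 2.49 with resveratrol. The GR24 arrays lay below all others, array 3 less far than the other 2. The change with GR24 was -1.49 (SE 0.129, adjusted p = 3.75e-06), a 2.8-fold fall, with -1.67 and -1.11 within the 2 slides. It was -0.087 with pinosylvin (adjusted p = 0.733) and -0.35 with resveratrol (adjusted p = 0.0979). Cryab, the abundant small heat shock protein of muscle and lens, lies next to Hspb2 in the genome, and it did not follow. It read 8.05, 8.27 and 7.99 in the control, 8.12, 8.21 and 8.13 with GR24, 8.22, 8.26 and 8.23 with pinosylvin and 7.92, 7.92 and 7.87 with resveratrol. GR24 and control arrays overlapped, and the resveratrol arrays lay below all others. With GR24 the change was 0.045, with an interval of -0.12 to 0.21, though it was called higher wherever quantile normalization was used and in the deposited series table. With resveratrol it was -0.20 (adjusted p = 0.0959, and 0.0327 with the replicate block).

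Hspb8, which works with Bag3, rose with all 3 compounds. It read 2.31, 2.19 and 2.04 in the control, 3.27, 3.33 and 3.07 with GR24, 2.82, 2.74 and 2.55 with pinosylvin and 2.64, 2.54 and 2.42 with resveratrol. The control arrays lay below all treated arrays and the GR24 arrays above all others, with the stilbene groups overlapping between them. The change was 1.04 with GR24 (SE 0.105, adjusted p = 1.13e-05), a 2.06-fold rise, 0.52 with pinosylvin (adjusted p = 0.00687) and 0.35 with resveratrol (adjusted p = 0.0431). The resveratrol call was lost without control array 2 or 3, GR24 array 1, pinosylvin array 1 or 2 or resveratrol array 1 or 2 (adjusted p up to 0.142).

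Hspb7, which guards the sarcomere in heart and skeletal muscle, read -0.73, -0.40 and -0.62 in the control, -0.33, 0.024 and -0.18 with GR24, -0.23, -0.22 and -0.52 with pinosylvin and -1.05, -0.86 and -1.09 with resveratrol. The resveratrol arrays were the lowest and the GR24 arrays lay above the control, which the pinosylvin arrays overlapped. The change was 0.42 with GR24 (SE 0.126, adjusted p = 0.0144), 0.26 with pinosylvin (adjusted p = 0.198, with 0.0444 for the replicate and 0.118 for the slide block) and -0.41 with resveratrol (adjusted p = 0.0488). The GR24 call was lost without control array 1 or GR24 array 2 (adjusted p up to 0.0608), and the resveratrol call without any one array but GR24 array 2 or pinosylvin array 3 (adjusted p up to 0.162). Hspb1, the widespread heat-inducible form, was 0.58 higher with GR24 (adjusted p = 0.000883), and its changes with pinosylvin and resveratrol were 0.040 and -0.034. Hspb6, a small heat shock protein of muscle that binds Bag3, was 0.33 higher with GR24 (adjusted p = 0.0236), a call lost without control array 2 or 3 or GR24 array 1 or 2 (adjusted p up to 0.0855).

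The mitochondrial chaperonin folds proteins inside a barrel of Hspd1 closed by a lid of Hspe1, and both genes fell with GR24. Hspe1 read 7.16, 7.27 and 6.96 in the control, 6.43, 6.34 and 6.38 with GR24, 7.48, 7.47 and 7.40 with pinosylvin and 7.05, 6.99 and 6.89 with resveratrol. The arrays of GR24 lay below and the pinosylvin arrays above all others. The change was -0.75 with GR24 (SE 0.0826, adjusted p = 2.31e-05) and 0.32 with pinosylvin (adjusted p = 0.0241). The pinosylvin call was lost without control array 1 or 3 or pinosylvin array 1 or 2 (adjusted p up to 0.0772). Hspd1 read 5.69, 5.82 and 5.67 in the control, 5.34, 5.39 and 5.30 with GR24, 5.83, 5.86 and 5.94 with pinosylvin and 5.80, 5.70 and 5.71 with resveratrol. The order of the groups was that of Hspe1 at both ends. The change with GR24 was -0.38 (SE 0.0642, adjusted p = 0.000472), and its other probes gave -0.22 and -0.21, both called. So among the transcripts of these mitochondrial chaperones, that of Hspa9 rose while those of the chaperonin pair fell with GR24.

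The cytosolic chaperonin TRiC is built of stacked rings of different subunits and folds actin and tubulin, and 7 of its genes were listed and tested. With GR24 3 were higher, 2 lower and 2 did not pass, although the subunits are parts of the same complex. Cct6a, a further subunit from outside the list, had a mean of 5.03 in the control and 5.35 with GR24, with no overlap. Cct8 read 1.06, 1.19 and 1.17 in the control, 0.19, 0.28 and 0.10 with GR24, 0.94, 0.81 and 0.90 with pinosylvin and 1.08, 1.01 and 0.98 with resveratrol. The GR24 arrays were the lowest, and the pinosylvin arrays lay below the control. The change was -0.95 with GR24 (SE 0.0694, adjusted p = 1.06e-06) and -0.26 with pinosylvin (adjusted p = 0.03), the latter lost without control array 2 or 3 or pinosylvin array 2 or 3 (adjusted p up to 0.115). Cct3 read 5.84, 5.84 and 5.54 in the control, 6.12, 6.19 and 6.01 with GR24, 5.95, 5.89 and 5.70 with pinosylvin and 5.84, 5.82 and 5.65 with resveratrol. All GR24 arrays lay above the others, and its change was 0.37 (SE 0.105, adjusted p = 0.012). Cct4 was at 0.26 (adjusted p = 0.0143), Cct7 at 0.31 (adjusted p = 0.046) and Cct2 at -0.15 (adjusted p = 0.0463) with GR24. The call of Cct4 was lost without control array 3 or GR24 array 2 (adjusted p up to 0.0543). That of Cct7 was lost without any control array, GR24 array 1 or 2, pinosylvin array 1 or 2 or resveratrol array 1 (adjusted p up to 0.155), and that of Cct2 without any one of the 12 arrays (adjusted p up to 0.145), its change being -0.039 in the series table. Tcp1 and Cct5 did not pass, at 0.12 and -0.11, but Tcp1 passed in 5 alternatives, quantile normalization, the series table and the percentile over spots among them (adjusted p down to 0.0235).

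**Figure D2:**
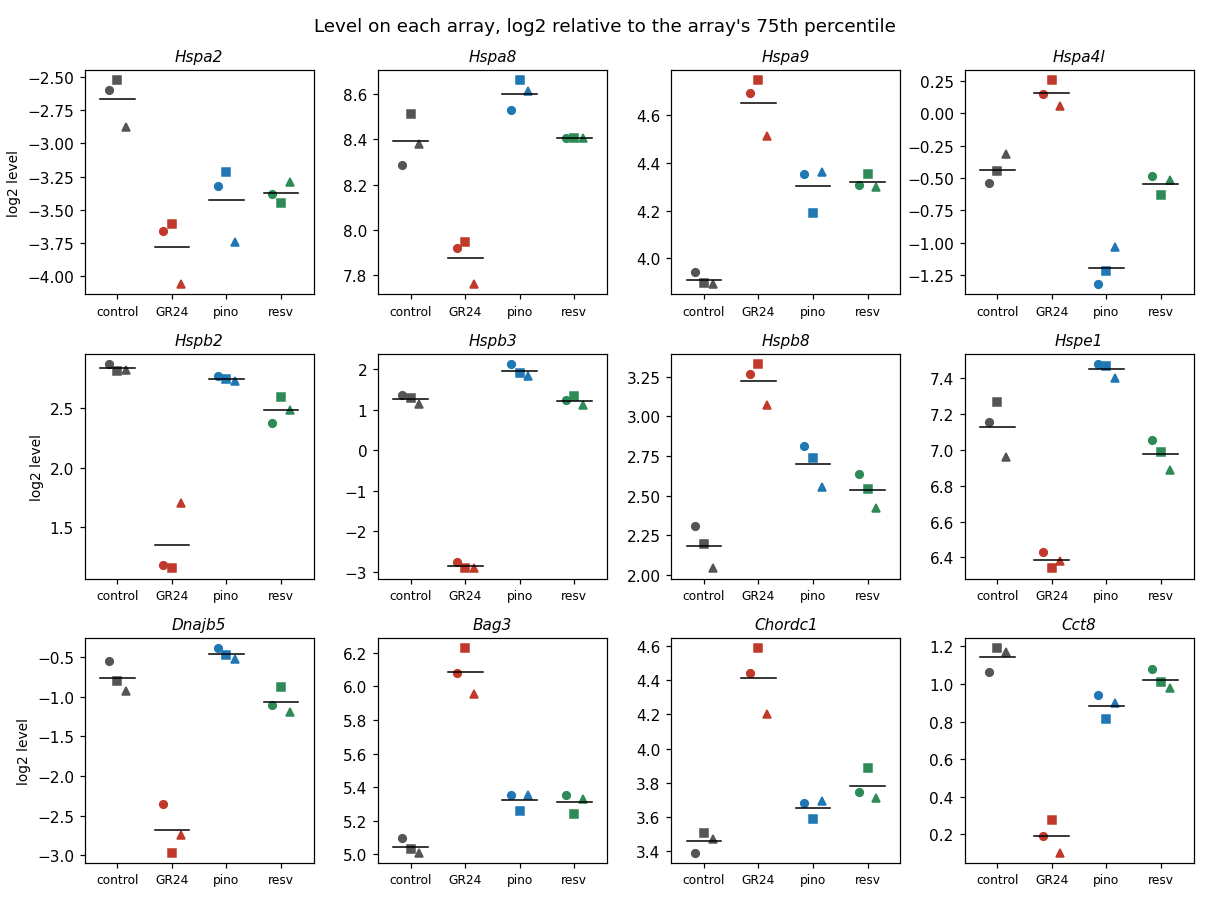
Level of 12 heat shock chaperone genes on each of the 12 arrays (vertical axis, log2 relative to the array's 75th percentile, scaled per panel) in the control, GR24, pinosylvin (pino) and resveratrol (resv) groups. Circles, squares and triangles are replicates 1, 2 and 3, and lines are group means. The GR24 arrays of Hspb3 sit between -2.92 and -2.75, below every other array.

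The compounds were then set against each other at the same dose and time, in 3 pairs. All comparisons with the control share the control arrays, and those with GR24 share the GR24 arrays, so their values are given side by side only. Against pinosylvin GR24 had 19 chaperone genes higher and 9 lower (65.1%), where 56.4% of all tested probes were called, 29.6% higher and 26.8% lower. Against resveratrol it had 19 higher and 8 lower (62.8%), where 51.4% of all probes were called, 27.4% higher and 23.9% lower. The groups did not overlap in 34 and 29 of the 43 genes, against 62.6% and 58.7% of all tested probes. Both shares of calls lay closer to those of all probes than the share against the control did. With the replicate block 20 genes were higher and 10 lower against pinosylvin (69.8%, beside 66.6% of all tested probes). Against resveratrol the block gave 22 higher and 10 lower (74.4%, beside 61.2%).

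The median change was 0.16 against pinosylvin, beside -0.0031 over all probes, and 0.25 against resveratrol, beside 0.024. The first ranged from 0.10 to 0.22 with each array left out and was 0.29 with quantile normalization (all probes 0.0743) and 0.25 with the percentile over spots (all probes 0.0873). The second was 0.15 on slide 2 alone. Without GR24 array 2 the count of higher genes against resveratrol was lowest, at 13. Hspb3 differed by -4.82 from pinosylvin (SE 0.0966, adjusted p = 2.41e-10) and by -4.09 from resveratrol (adjusted p = 1.07e-09). Hspa4l was 1.35 higher with GR24 than with pinosylvin (SE 0.0935, adjusted p = 8.24e-07), and Hspe1 was lower by a difference of -1.07 (adjusted p = 1.86e-06). Bag3 was 0.77 higher with GR24 than with pinosylvin (adjusted p = 1.23e-05) and 0.78 higher than with resveratrol (adjusted p = 1.39e-05). Bag2, which rose with every compound, showed no difference past the threshold between GR24 and pinosylvin, at 0.11 with an interval of -0.062 to 0.27, or between GR24 and resveratrol, at 0.061 with an interval of -0.11 to 0.23. The first difference passed with quantile normalization, with or without normexp, and in the series table, and both passed with the percentile over spots (adjusted p = 0.0175 and 0.0336). For Hspa2 the differences were -0.35 (adjusted p = 0.0891) and -0.40 (adjusted p = 0.0592), and both passed with the replicate block, at 0.0288 and 0.0172.

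Pinosylvin and resveratrol share the stilbene frame, on which resveratrol carries an additional hydroxyl group. Between them 5 chaperone genes were higher with pinosylvin, 2 were lower and 36 did not pass, which is 16.3% called, where 14.5% of all tested probes were, 7.68% higher and 6.85% lower. In 18 of the 43 genes the groups did not overlap, against 33.5% of all tested probes. The median difference was 0.048, beside 0.022 over all probes, and ranged from 0.017 to 0.093 with each array left out, while with quantile normalization it was -0.011. With the replicate block 9 genes were higher and 3 lower (27.9%), beside 26% of all tested probes. Without pinosylvin array 2 or resveratrol array 3 there were 3 higher. The count of lower genes was 1 without control array 2, GR24 array 1, pinosylvin array 1 or 2 or any resveratrol array.

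Of the 7 differences past the threshold 3 were in small heat shock proteins. Hspb3 was 0.73 higher with pinosylvin than with resveratrol (SE 0.0966, adjusted p = 0.000765), and Hspb7 was 0.68 higher (SE 0.126, adjusted p = 0.00556). Cryab was 0.33 higher (SE 0.0745, adjusted p = 0.0147), a call lost without pinosylvin array 2 or resveratrol array 3 (adjusted p up to 0.0574) and in 5 other alternatives, quantile normalization among them (adjusted p up to 0.446). In the series table the difference of Cryab was only 0.083. Outside that family, Hspe1 was 0.47 higher (SE 0.0826, adjusted p = 0.00384) and Dnajb5 was 0.60 higher (SE 0.154, adjusted p = 0.0275), the latter lost without any pinosylvin array or without resveratrol array 1 or 3 (adjusted p up to 0.0953). Hspa4l was lower with pinosylvin, by a difference of -0.65 (SE 0.0935, adjusted p = 0.00129). Ptges3 read 5.16, 5.31 and 5.37 in the control, 5.51, 5.64 and 5.47 with GR24, 5.10, 5.20 and 5.31 with pinosylvin and 5.43, 5.51 and 5.50 with resveratrol. Its pinosylvin arrays lay below its resveratrol arrays, by a difference of -0.28 (SE 0.0815, adjusted p = 0.0453). That call was lost without control array 2, GR24 array 1, pinosylvin array 1 or 2 or any resveratrol array (adjusted p up to 0.144). All 7 calls kept their side of the threshold when p-values were adjusted over all 6 comparisons together.

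For the genes that moved with both stilbenes the intervals of the difference were narrow. Between pinosylvin and resveratrol Hspa9 differed by -0.018 (interval -0.19 to 0.15), Bag2 by -0.044 (interval -0.21 to 0.12) and Bag3 by 0.012 (interval -0.16 to 0.18). Hspa2 differed by -0.052, with a wider interval of -0.41 to 0.31. Hspb8 differed by 0.17 (interval -0.064 to 0.40, adjusted p = 0.336), and with the replicate block it passed (adjusted p = 0.0366). The block also brought in Dnajb6 at 0.37 (adjusted p = 0.00492), Hsf1 at 0.25 (adjusted p = 0.0132), Hsf2 at 0.23 (adjusted p = 0.00835) and Fkbp4 at -0.29 (adjusted p = 0.0107). Without the block the adjusted p of these was 0.0637, 0.192, 0.0628 and 0.0781.

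**Figure D3:**
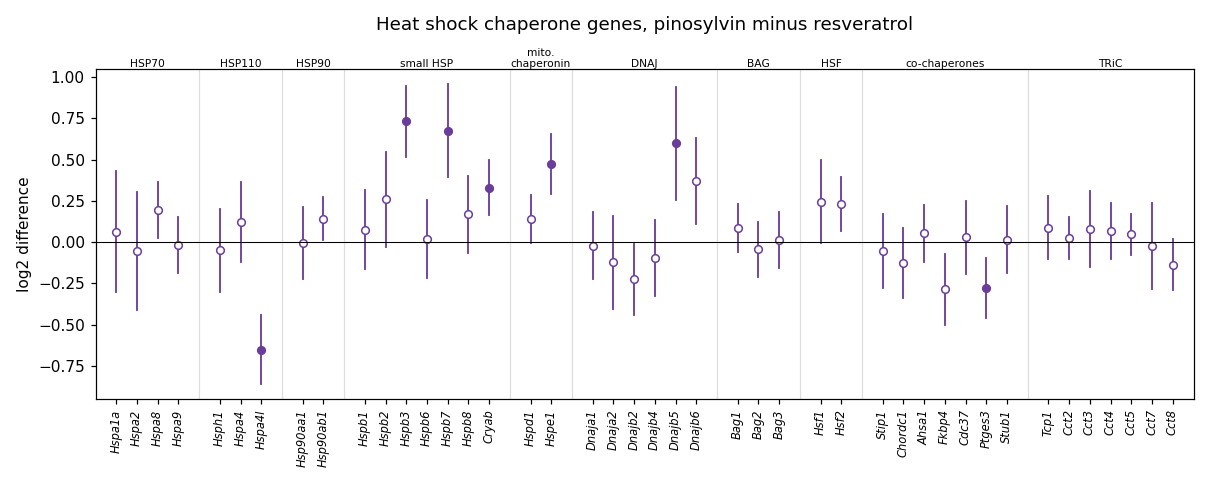
Difference of each heat shock chaperone gene between pinosylvin and resveratrol (log2 difference, vertical axis), by family, with 3 arrays per group. Points are fitted differences, bars are 95% confidence intervals and filled points passed the threshold. Above 0 is higher with pinosylvin, from 0.33 for Cryab to 0.73 for Hspb3 among the 5 called.

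Since Hspb2 and Hspb3 belong to differentiated muscle, the myotube markers were set beside them. With GR24 0 of the 12 tested markers were higher and 9 were lower, with a median change of -1.30. Myog, the factor that drives myoblast fusion, was at -5.83 (adjusted p = 5.53e-10) and the actin gene Acta1 at -3.88 (adjusted p = 2.4e-10), while Des and Mb did not pass, at -0.089 and -0.19. The summed signal of the 12 markers, in units of the 75th percentile, was 1007, 1102 and 972 on the control arrays, 427.5, 413 and 397 with GR24, 1107, 1158 and 1067 with pinosylvin and 866, 923 and 835 with resveratrol. It was lowest on the GR24 arrays, as Hspb3 was, and Myh3 alone made up 41.1% to 56.7% of it. Hspb6, Hspb7 and Cryab, which are small heat shock proteins of muscle too, did not fall with GR24, at 0.33, 0.42 and 0.045. With pinosylvin 2 markers were higher and 0 were lower, with a median of 0.19, and with resveratrol 0 were higher and 5 lower, with a median of -0.26. Between pinosylvin and resveratrol 8 were higher and 0 lower, with a median of 0.40.

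Markers of undifferentiated myoblasts, 6 of 7 tested, moved in both directions with GR24, 2 higher and 2 lower. Id2 and Hes1 rose, by 1.22 and 0.65, and Vim, the brightest, fell, at -0.91. Myf5 fell too, from a mean level of 2.39 in the control to 1.51 with GR24. Id3, the one left out, was above background on 4 arrays. Their summed signal was 176, 179.6 and 160.3 on the control arrays, 95.4, 97.2 and 86.9 with GR24, 127, 130.4 and 117 with pinosylvin and 113.5, 119 and 107 with resveratrol. Vim alone made up 93.7% to 96.5% of this sum on each array. The 4 tested genes of cycling cells, with Cdk1 the brightest and no probe for Top2a, were lower with every compound, with medians of -2.84 for GR24, -1.70 for pinosylvin and -0.92 for resveratrol. Their summed signal was 72.4, 69.6 and 67.1 in the control, 9.52, 9.66 and 8.74 with GR24, 23.6, 24.4 and 22.2 with pinosylvin and 37.2, 40.6 and 36.7 with resveratrol. The endothelial marker Cdh5 did not pass with GR24 (adjusted p = 0.151). Fewer cells of a kind and less RNA per cell cannot be told apart here, and the part of either in the falls of Hspb2, Hspb3 and Dnajb5 was not tested.

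Chaperone genes outside the 45 were taken from a second list of 48, of which 41 were tested. With GR24 20 were higher and 8 lower (68.3%), where 57.1% of all tested probes were called, with a median change of 0.21. Bag4, which silences receptors of the TNF family, was 1.19 higher (adjusted p = 0.000114), or 0.57 with normexp, Bag5 was 0.82 higher (adjusted p = 3.46e-06) and Dnaja3, the DNAJ partner of Hspa9, was 1.12 higher (adjusted p = 1.99e-06). The mitochondrial protease Lonp1 was 0.76 higher (adjusted p = 7.9e-05), beside the rise of Hspa9, and the nucleotide exchange factor Grpel1 was at 0.033 (adjusted p = 0.761). Other mitochondrial genes of the list went both ways. Dnajc19 fell from a mean of 3.64 in the control to 3.03 with GR24, with no overlap. Grpel2 rose from -0.52 to 0.021 and Clpx from 1.54 to 2.00, also with no overlap, while Trap1, at 4.20 and 4.32, overlapped. Smyd1, a methyltransferase of muscle that works with HSP90 on myosin, was the lowest of the list. It read -0.86, -0.81 and -0.87 in the control, -4.39, -4.32 and -3.77 with GR24, -0.64, -0.71 and -0.77 with pinosylvin and -1.43, -1.49 and -1.50 with resveratrol. The GR24 arrays lay far below the others and the resveratrol arrays below the control. Its change with GR24 was -3.31 (adjusted p = 1.38e-08), or -2.09 with normexp and quantile normalization, and with resveratrol -0.62 (adjusted p = 0.01). Pinosylvin had 2 of the 41 higher and 3 lower (12.2%, beside 16.6% of all tested probes), and resveratrol had 2 higher and 4 lower (14.6%, beside 17.0%), with medians of 0.067 and 0.022.

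Heat shock factors bind repeats of the bases NGAAN in alternating orientation, so the promoters were searched for them. RefSeq promoters of the rat assembly GRCr8, from 250 bases before the start to 50 after it, were found for 38 of the 45 genes. The longer form searched for was 3 units in a row that alternate between GAA and its reverse complement TTC, beginning with either and with 2 bases of any kind between units. It was in 7 of the 38 windows (18.4%), against 267 of all 33469 promoters (0.798%). The shorter form, with 2 such units, is part of the longer one and was in 20 of the 38 (52.6%), against 15.9% of all promoters. The 7 with the longer form were Chordc1, Hsph1, Cct4, Hspa8, Hspd1, Hspe1 and Dnaja1. They are shown because genes with the same form moved in opposite directions with GR24. In each line 30 bases are printed from 5′ to 3′ on the strand of the gene, with the matching letters in capitals, and runs that overlap are joined.
Chordc1: accgGAACGTTCGGGAAGATTCCTGAAgca
Hsph1: tgccgcagaTTCTGGAAAGTTCtcctcagt
Cct4: ggcgtcgctTTCTGGAAGGTTCgtggaggc
Hspa8: gcggaacccTTCTGGAAGGTTCtaagacag
Hspe1: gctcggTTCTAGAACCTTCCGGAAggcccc
Dnaja1: ggccgggcgGAACTTTCCAGAAcgctcggt
The stretches are, in this order, chr8:23650827-23650856, chr12:10427323-10427352, chr14:101193073-101193102, chr8:50080450-50080479, chr9:64084256-64084285 and chr5:60638404-60638433, all on the plus strand. The printed matches of Chordc1, Cct4 and Dnaja1 lie after the start of their gene, and the other printed ones lie before it. Hspa8 has a further match in its window. The Hspe1 stretch also lies in the window of Hspd1, which starts on the opposite strand, the 2 windows sharing 211 bases.

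With GR24, Chordc1, Hsph1 and Cct4 rose, by 0.95, 0.64 and 0.26, while Hspa8, Hspd1 and Hspe1 fell, with changes of -0.52, -0.38 and -0.75, and Dnaja1 did not pass, at 0.014. The median change of the 7 was 0.014. With pinosylvin Hspe1 rose and 6 did not pass, and with resveratrol Chordc1 rose and 6 did not pass. Among the 19 tested genes with the shorter form 11 were higher and 4 lower with GR24, with a median change of 0.33. Among the 18 tested genes whose window lacks it 9 were higher and 5 lower, with a median of 0.17. Hspa1a, the stress-inducible HSP70, was among those that lack it. Bound factor was not measured, so these matches describe the letters only.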

How the data were processed

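Single-colour Agilent arrays of 12 RNA samples were analysed. The authors deposited the output of Agilent Feature Extraction 12.0.0.7, with intensities on a linear scale (processed signal, median spot signal and median local background) and marks per spot, and a series table of normalized log2 values. Control spots were dropped, outlier spots were left out, and the mean was taken over the remaining spots of each probe. Processed signals were put on a log2 scale, and the 75th percentile of all probes was subtracted on each array. Testing required a probe to be well above background, in at least 50% of its spots, on all 3 arrays of at least 1 group. No spot was saturated. Differences were fitted with limma 3.58.1 in R 4.3.3 (a mean per group, all 12 arrays, eBayes), two-sided, with Benjamini-Hochberg adjustment over 24279 probes per comparison and a threshold of 0.05. The fit was checked on simulated data. Promoters were searched with Python 3.11.15.

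Levels on every array are given for genes past the threshold with a change of at least 1 on the log2 scale against the control and for the highest and lowest gene of each family with GR24, and genes called between pinosylvin and resveratrol are named. Array values of Hspa1a, Hspa8, Hspa4l, Hspb7, Cryab, Ptges3 and Smyd1 that fall outside this rule were chosen after the values were seen, as were the genes named from the other lists. The members and the lists were chosen with earlier results of these data known.

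Replicate numbers are shared between the groups in the labels. Deviations from the group means correlated at 0.191 to 0.744 between arrays of the same number and at -0.663 to 0.475 between others, and 10 of 12 arrays correlated best with an array of their own number, so the number was used as a block. Per the file headers, replicates 1 and 2 were on 1 slide and replicate 3 on another. Between groups on the first slide the correlations were 0.191 to 0.47 for the same number and 0.222 to 0.475 for the other, so number and slide were not separated. The SD of the difference between arrays of a group was 0.258 to 0.287 within the slide and 0.365 to 0.464 across slides.

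As alternatives, the series table was used, normalization was by quantiles, the background was corrected by normexp (offset 50) before each normalization, dim probes were kept, tests were limited to probes bright on all arrays, and the percentile was taken over such probes. Others were only the arrays compared, the replicate and slide blocks, each slide alone, eBayes with trend and robust settings, the mean over the probes of a gene, outlier spots kept, adjustment over all 6 comparisons together and each array left out. The percentile over spots, and the median signal in normexp in place of a mean signal the files do not hold, were added after the data were seen. One listed marker of another cell type is not reported here.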

Additional observations from a re-analysis of the deposited data

How the results depend on the processing

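Of the 33 chaperone genes called with GR24, 23 kept their call under every alternative that was tested, as did 5 of 10 with pinosylvin, 2 of 7 with resveratrol, 23 of 28 between GR24 and pinosylvin, 21 of 27 between GR24 and resveratrol and 4 of 7 between pinosylvin and resveratrol. No called gene changed sign under any of the 29 alternatives. The difference of Cryab between GR24 and pinosylvin, -0.084 and not past the threshold, turned to 0.29 with quantile normalization, 0.34 with normexp and quantile normalization and 0.33 in the series table, all called. With the replicate block, Cct3 between GR24 and pinosylvin (adjusted p = 0.00204) and Hspa1a (0.0238), Hsp90aa1 (0.00107), Cct2 (0.0367) and Cct7 (0.000433) between GR24 and resveratrol passed as well, and apart from the genes named with their results the block changed no other call. With the slide block Hspa8 and Hspb7 with pinosylvin, Hspa1a and Ptges3 with resveratrol and Hspa1a between GR24 and resveratrol did not pass (adjusted p from 0.0519 to 0.118), while Dnajb6 with pinosylvin, Hsp90ab1 with resveratrol and Hsp90ab1 and Dnajb2 between pinosylvin and resveratrol did. Other alternatives brought in calls too. Quantile normalization, alone or after normexp, and the series table called Cryab, Fkbp4 and Tcp1 with GR24, Hspa8 and Hsf2 with pinosylvin and Dnajb2 with resveratrol. Among the rest with resveratrol, Cryab passed in 5 alternatives, Hspb2 in 3 and Hsph1 on slide 1 alone. Between GR24 and pinosylvin Cct3 passed in 11 alternatives, Bag2 in 4 and Tcp1 in 3. Between GR24 and resveratrol Hsp90aa1 passed in 14, Cct7 in 12, Hsp90ab1 in 4, Fkbp4 and Tcp1 in 3 each and Bag2 in 1. Between the stilbenes Hsf2 passed in 9, Fkbp4 in 8, Dnajb6 in 5 and Hspb2 in 1. On slide 2 alone the GR24 changes of Hspa4l, Hsph1, Dnaja2, Bag2 and Ptges3 were smaller than in the main fit, at 0.38, 0.28, 0.30, 0.27 and 0.092. The median level of the chaperone genes varied between replicate arrays with an SD of 0.0882. For GR24 against the control their median change was 0.35 with normexp and quantile normalization, 0.35 in the series table and 0.36 with the percentile over spots, where the median of all probes was 0.0769, 0.0828 and 0.127. Against pinosylvin it was 0.29 with quantile normalization (all probes 0.0743) and 0.25 with the percentile over spots (all probes 0.0873), and against resveratrol 0.15 on slide 2 alone and 0.36 with the percentile over spots (all probes 0.135). With each array left out, the median change ranged from 0.21 to 0.29 for GR24, 0.067 to 0.16 for pinosylvin, -0.043 to 0.073 for resveratrol, 0.10 to 0.22 and 0.19 to 0.26 for GR24 against pinosylvin and resveratrol, and 0.017 to 0.093 for pinosylvin against resveratrol. The counts of higher genes ranged from 15 to 24 for GR24, 4 to 7 for pinosylvin, 2 to 5 for resveratrol, 16 to 20 and 13 to 20 for GR24 against pinosylvin and resveratrol, and 3 to 6 for pinosylvin against resveratrol. The counts of lower genes ranged from 0 to 2 for resveratrol and from 1 to 2 for pinosylvin against resveratrol. For pinosylvin the count of higher genes was 4 with no filter on dim probes, 3 with only the arrays compared, 12 with the replicate block and 11 with the slide block. For resveratrol the count of higher genes was 2 with no filter and 2 with only the arrays compared, and the count of lower genes was 0 with quantile normalization, 1 with normexp, 0 with both, 0 in the series table, 1 with no filter and 4 with the replicate block. Between pinosylvin and resveratrol the count of higher genes was 3 with no filter, 9 with the replicate block and 10 with the slide block, and the count of lower genes was 1 with no filter, 1 with only the arrays compared, 4 with the slide block and 1 on slide 1 alone. The cause was not tested. With no filter more probes enter the adjustment. Slide 2 alone has 1 array per group and gives values with no test.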
